A study of Mus musculus with 6 samples.

Results

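Forkhead genes encode transcription factors that share a winged-helix DNA-binding domain, and 44 of the 46983 genes counted in these hearts carried a symbol of this family (Foxa to Foxs followed by a number). All 44 were taken, whatever their level. Of these, 27 had enough counts to be tested, 9 had some counts but too few for a test, and 8 had no count in any heart. The hearts came from mouse embryos at stage E13.5 of a C57BL/6 x DBA/2 background, with a single whole heart in each library. The 3 mutant hearts (replicates 1, 5 and 10) carried TnnT2Cre and Wt1flox, so that Wt1, a zinc-finger transcription factor, is deleted where the cardiac troponin T promoter has driven Cre. The study describes this driver as active in the myocardium and in part of the epicardial lineage. The 3 control hearts (replicates 2, 3 and 5) are labelled wild type, and the methods give them as floxed embryos without Cre. Nothing in the labels says whether the embryos came from separate litters, so p-values measure only the spread between these hearts.

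Forkhead proteins recognise a short core motif, TGTTTAC, and divide into subfamilies with different work. FOXA proteins open closed chromatin in gut, lung and liver endoderm, and FOXF1 acts in the mesenchyme around these organs downstream of Hedgehog signals. FOXC proteins serve neural crest, endocardium and vessels, FOXP proteins repress transcription in heart, lung and brain, FOXM1 drives mitotic genes, FOXJ1 drives motile cilia, and FOXO proteins are held in the cytoplasm by AKT.

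Total counts lay between 44244665 (wild type replicate 5) and 56373393 (wild type replicate 3). Cardiomyocyte markers, summed over 12 genes, reached 27700 to 28500 FPKM in wild type and 28200 to 29500 FPKM in mutant hearts. FPKM is the deposited count scaled to gene length and to the total of the heart. Reads on Wt1 itself numbered 2251, 1891 and 879 in the wild type hearts (replicates 2, 3 and 5) and 921, 1746 and 1796 in the mutant ones (replicates 1, 5 and 10), and its log2 fold change was -0.10 ± 0.31 (SE, adjusted p = 0.99). Epicardial cells also express Wt1, and the deleted part was not separated from the rest of the gene in these counts. Wild type replicate 3 held liver genes and wild type replicate 5 and mutant replicate 5 held airway genes, with values given beside the results they touch. In whole hearts, fewer cells of a type and less RNA per cell cannot be told apart.

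The embryonic heart carried a broad set of forkhead transcripts at moderate level. Counting by wild type mean, 11 genes reached 10 FPKM or more, 6 lay between 1 and 10 FPKM, and 10 tested genes lay under 1 FPKM. Foxk2, Foxp1, Foxp4 and Foxm1 stood at the top. This order rests on the length inside the FPKM: with all annotated exon bases as the length, Foxk2 stayed the highest, Foxo4 had rank 2 and Foxp1 rank 7, and 5 genes rather than 11 reached 10 per kilobase. By FPKM, only 3 of the 16 steps between neighbours in this order (Foxo3 to Foxn3, Foxj2 to Foxo1, and Foxo1 to Foxo6) separated all 3 wild type hearts of the higher gene from all 3 of the lower gene.

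**Figure D1:**
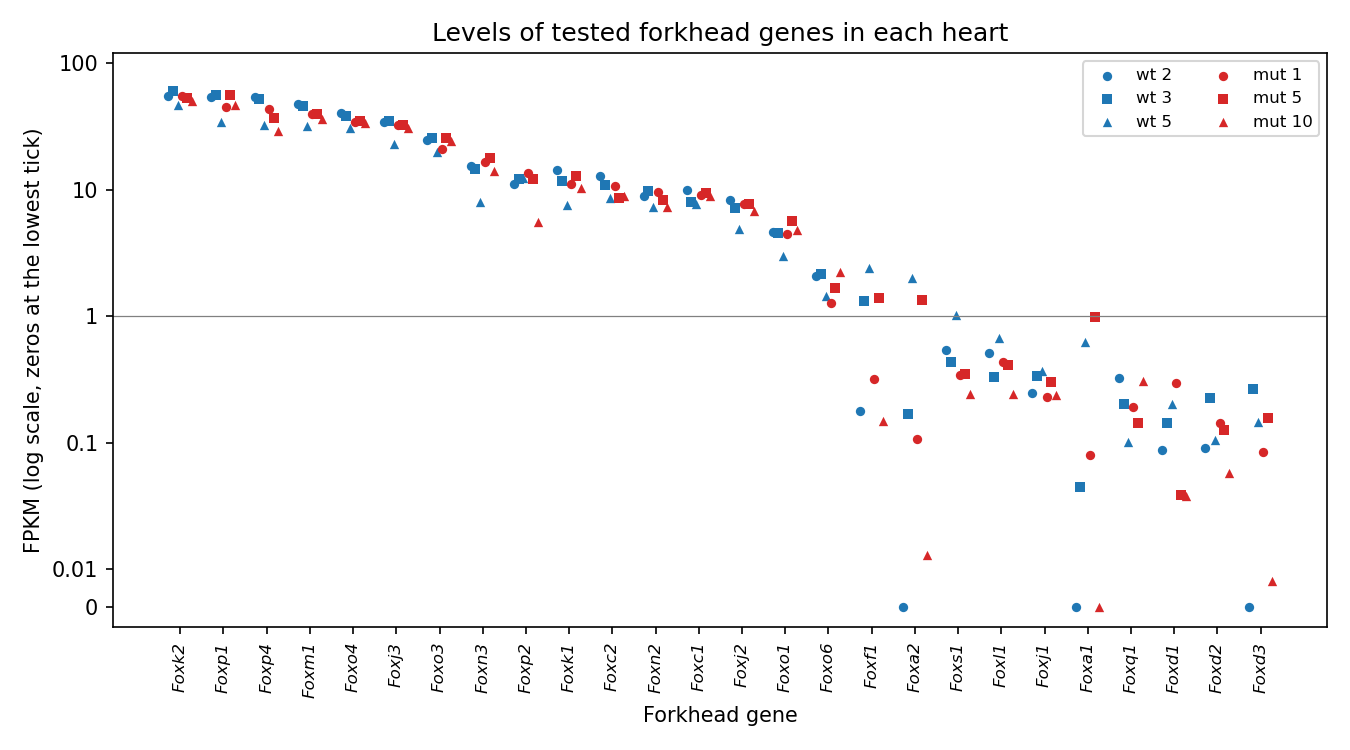
Level of tested forkhead genes in each heart, in FPKM on a log scale with zeros drawn at the lowest tick. Each point is a single heart (wild type blue, mutant red, shapes for replicates), genes run in order of the wild type mean, and the line marks 1 FPKM. Down to Foxo6 the coefficient of variation over the hearts, after scaling, runs from 7.36% to 23.8%. Foxf1, Foxa2, Foxa1 and Foxd3 spread widely between hearts of the same group.

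Foxk2 and Foxk1 encode repressors of autophagy and starvation genes that also act in glucose metabolism. Foxk2 (chr11:121259990-121309896, plus strand, GRCm38) had 55.0, 59.9 and 46.3 FPKM in wild type replicates 2, 3 and 5, and 54.8, 53.2 and 50.5 FPKM in mutant replicates 1, 5 and 10. Foxk1 had 14.3, 11.7 and 7.57 FPKM in wild type and 11.0, 12.8 and 10.2 FPKM in mutant hearts. The groups overlapped for both genes, with log2 fold changes of 0.01 ± 0.11 for Foxk2 and 0.05 ± 0.21 for Foxk1 (mutant over wild type, edgeR quasi-likelihood fit, ± SE, here and below).

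Foxp1, Foxp4 and Foxp2 encode repressors that pair with one another through a leucine zipper, and FOXP1 is known for its part in outflow tract and myocardial growth. Foxp1 (chr6:98925338-99522721, minus strand) had 54.0, 56.2 and 34.2 FPKM in wild type and 44.9, 55.6 and 46.7 FPKM in mutant hearts. Foxp4 (chr17:47867133-47924645, minus strand) had 53.5, 52.2 and 32.2 FPKM in wild type and 43.2, 36.8 and 29.2 FPKM in mutant hearts. For both genes wild type replicate 5 lay well under the other wild type hearts, and the groups overlapped. Foxp2 had 11.1, 12.2 and 12.4 FPKM in wild type and 13.4, 12.2 and 5.59 FPKM in mutant hearts, so that mutant replicate 10 alone was low. The log2 fold changes were 0.06 ± 0.18 for Foxp1, -0.31 ± 0.20 for Foxp4 and -0.18 ± 0.26 for Foxp2, the last being 0.10 without mutant replicate 10.

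The cell cycle factor Foxm1 (chr6:128362967-128376146, plus strand) had 47.7, 45.8 and 31.7 FPKM in wild type and 39.9, 39.8 and 36.4 FPKM in mutant hearts. The wild type hearts spanned the mutant ones, with wild type replicate 5 lowest of all. Its log2 fold change was -0.08 ± 0.15.

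Among the insulin-responsive FOXO genes, the X-linked Foxo4 (chrX:101254528-101260873, plus strand) was the most abundant. Foxo4 had 40.6, 38.3 and 30.6 FPKM in wild type and 34.1, 34.6 and 33.6 FPKM in mutant hearts. Xist, which marks hearts with 2 X chromosomes, had 19717, 20494 and 15043 counts in wild type replicate 2 and mutant replicates 5 and 10, and at most 12 in the others. Foxo4 in those 3 hearts (40.6, 34.6 and 33.6 FPKM) overlapped the others. Foxo3 had 24.6, 25.6 and 19.9 FPKM in wild type and 20.9, 25.5 and 24.3 FPKM in mutant hearts. Foxo1 (chr3:52268336-52353221, plus strand) had 4.65, 4.58 and 2.97 FPKM in wild type and 4.42, 5.63 and 4.79 FPKM in mutant hearts. The groups overlapped for all 3 genes, with log2 fold changes of -0.07 ± 0.12 for Foxo4, 0.05 ± 0.13 for Foxo3 and 0.31 ± 0.18 for Foxo1. Foxo6, known mainly from the brain, averaged 1.89 ± 0.405 FPKM in wild type and 1.72 ± 0.481 FPKM in mutant hearts (SD, n = 3 each).

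Foxj3 and Foxj2, broadly expressed relatives of the cilia factor, and the checkpoint-related Foxn3 and Foxn2 completed the ubiquitous set. Foxj3 had 34.2, 34.6 and 23.1 FPKM in wild type and 32.2, 32.4 and 30.5 FPKM in mutant hearts, while Foxj2 had 8.26, 7.17 and 4.89 against 7.64, 7.71 and 6.72 FPKM. Foxn3 had 15.4, 14.5 and 7.97 FPKM in wild type and 16.4, 17.7 and 13.9 FPKM in mutant hearts, and Foxn2 had 8.83, 9.69 and 7.25 against 9.63, 8.31 and 7.23 FPKM. In each of these genes but Foxn2, wild type replicate 5 was the lowest heart. The log2 fold change was 0.37 ± 0.22 for Foxn3, 0.15 ± 0.17 for Foxj2, 0.08 ± 0.15 for Foxj3 and -0.01 ± 0.14 for Foxn2.

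Foxc1 and Foxc2, required together for outflow tract, valve and vessel formation, lay at nearly the same level. Foxc1 (chr13:31806633-31812476, plus strand) had 9.89, 7.96 and 7.75 FPKM in wild type and 9.13, 9.36 and 8.89 FPKM in mutant hearts. Foxc2 (chr8:121116171-121118895, plus strand) had 12.7, 10.9 and 8.53 FPKM in wild type and 10.7, 8.57 and 8.92 FPKM in mutant hearts. Both groups overlapped, with log2 fold changes of 0.13 ± 0.12 and -0.16 ± 0.15.

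Several forkhead genes lie next to each other in the genome and were unlike in level. On chromosome 8, Foxf1 lies 28.0 kb from Foxc2, and Foxc2 lies 9.0 kb from Foxl1. Their wild type means were 1.31, 10.7 and 0.503 FPKM. On chromosome 13, Foxq1, Foxf2 and Foxc1 follow each other with gaps of 64.8 and 175.2 kb, and their wild type means were 0.21, 0.0588 and 8.53 FPKM. In both groups of neighbours the Foxc gene was the highest in every heart. Opposite-strand genes cover 66.07% of the exon bases of Foxq1 (A530084C06Rik, 4 to 20 counts a heart), and since the strand setting of the counting is not stated, reads on the shared bases cannot be assigned between them.

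Promoter sequences from RefSeq (GRCm38.p6, 250 bases before to 50 after the start) were at hand for 28 of the 44 genes, with 33 starts. They were GC-rich, with a median of 62.7% against 52.7% over all 32851 promoters, and 21 of the 33 (63.6%) had a ratio of observed to expected CpG above 0.6, against 35.8% of all promoters. The forkhead core TGTTTAC was searched on both strands and was found in 1 of the 33 (3.0%), that of Foxa1, and in 3.65% of all promoters. The core GCGTGGG, bound by zinc-finger proteins of the EGR and WT1 type, was found on either strand in 4 (12.1%), those of Foxa3, Foxd3, Foxj2 and Foxk2, and in 5.04% of all promoters. Neither motif contains the other. The promoters of a gene that varied between hearts (Foxa1), of the steady Foxk2 and of Foxa3 are shown because the cores lie in them, with the cores in capitals.
Foxa1 (chr12:57546062-57546361, minus strand): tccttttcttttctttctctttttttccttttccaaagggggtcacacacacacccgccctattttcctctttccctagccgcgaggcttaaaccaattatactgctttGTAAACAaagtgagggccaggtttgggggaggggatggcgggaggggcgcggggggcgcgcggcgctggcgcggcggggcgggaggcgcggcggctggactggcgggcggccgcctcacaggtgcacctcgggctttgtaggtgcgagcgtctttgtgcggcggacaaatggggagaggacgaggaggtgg
Foxk2 (chr11:121259737-121260036, plus strand): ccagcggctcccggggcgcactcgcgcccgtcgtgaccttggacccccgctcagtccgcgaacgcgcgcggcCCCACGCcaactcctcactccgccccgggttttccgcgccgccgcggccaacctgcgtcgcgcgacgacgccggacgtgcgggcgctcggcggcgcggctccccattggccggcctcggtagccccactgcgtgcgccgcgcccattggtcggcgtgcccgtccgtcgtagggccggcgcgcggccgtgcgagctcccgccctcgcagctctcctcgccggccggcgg
Foxa3 (chr7:19023490-19023789, minus strand): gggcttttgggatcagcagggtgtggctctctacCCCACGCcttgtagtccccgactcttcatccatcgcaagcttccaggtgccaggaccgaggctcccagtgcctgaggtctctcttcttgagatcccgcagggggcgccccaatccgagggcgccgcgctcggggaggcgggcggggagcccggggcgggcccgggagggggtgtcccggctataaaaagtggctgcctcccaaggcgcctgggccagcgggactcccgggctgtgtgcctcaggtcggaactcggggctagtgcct
In Foxa1 the core, read on the opposite strand, ends 134 bases before the start. The ratio of observed to expected CpG was 0.93 in the Foxa1 promoter and 0.62 in that of Foxa3, and was highest of the 33 in that of Foxk2. Of the 4 genes with the GCGTGGG core, Foxk2, Foxj2 and Foxd3 were tested, with log2 fold changes of 0.01, 0.15 and -0.71, and a match of letters is no evidence of binding.

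Related forkhead genes stood at unequal levels, in the same direction in every heart for 6 of the 7 pairs compared. Of 9 pairs listed, 7 had enough counts. Ratios are of FPKM, whose length agrees within 1 base with the mean length of a gene's annotated transcripts in 76.0% of genes, so they depend on that choice of length. Foxj2 stood at 0.225 of Foxj3, with log2 ratios of -2.05, -2.27 and -2.24 in wild type and -2.07, -2.07 and -2.18 in mutant hearts. Foxk1 stood at 0.208 of Foxk2, Foxo1 at 0.189 of Foxo3, and Foxp1 at 4.47 times Foxp2. In each of these 4 pairs the same gene was higher in all 6 hearts (exact sign-flip permutation test, two-sided, p = 0.0312 each, the smallest that 6 hearts allow, adjusted p = 0.0364 over 7 pairs). The length is the same in every heart, so this p measures only how the hearts agree at that length. These 4 pairs also kept their direction with all annotated exon bases as the length, at ratios of 0.831, 0.289, 0.509 and 4.65.

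The other pairs were closer or hung on the length. Foxc1 stood at 0.886 of Foxc2, with the second gene higher in 5 of 6 hearts (the same exact test, p = 0.0938, adjusted p = 0.0938). Foxn2 stood at 0.607 of Foxn3 by FPKM, and Foxp1 at 1.2 times Foxp4 (p = 0.0312 and adjusted p = 0.0364 for each in the same exact test). With all exon bases as the length both turned round, to 1.84 for Foxn2 to Foxn3 and 0.376 for Foxp1 to Foxp4. Foxp1 has 13751 annotated exon bases against a length of 1756 in its FPKM, and Foxn3 11501 against 1335. Between the groups no ratio differed past the exact permutation test of 3 hearts against 3, whose smallest possible p is 0.1 and which therefore cannot reach 0.05. The log2 ratio of Foxo1 to Foxo3 was higher in every mutant heart (-2.24, -2.18 and -2.34) than in every wild type heart (-2.40, -2.48 and -2.74), with a difference of 0.29 (exact permutation p = 0.1, adjusted p = 0.467).

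**Figure D2:**
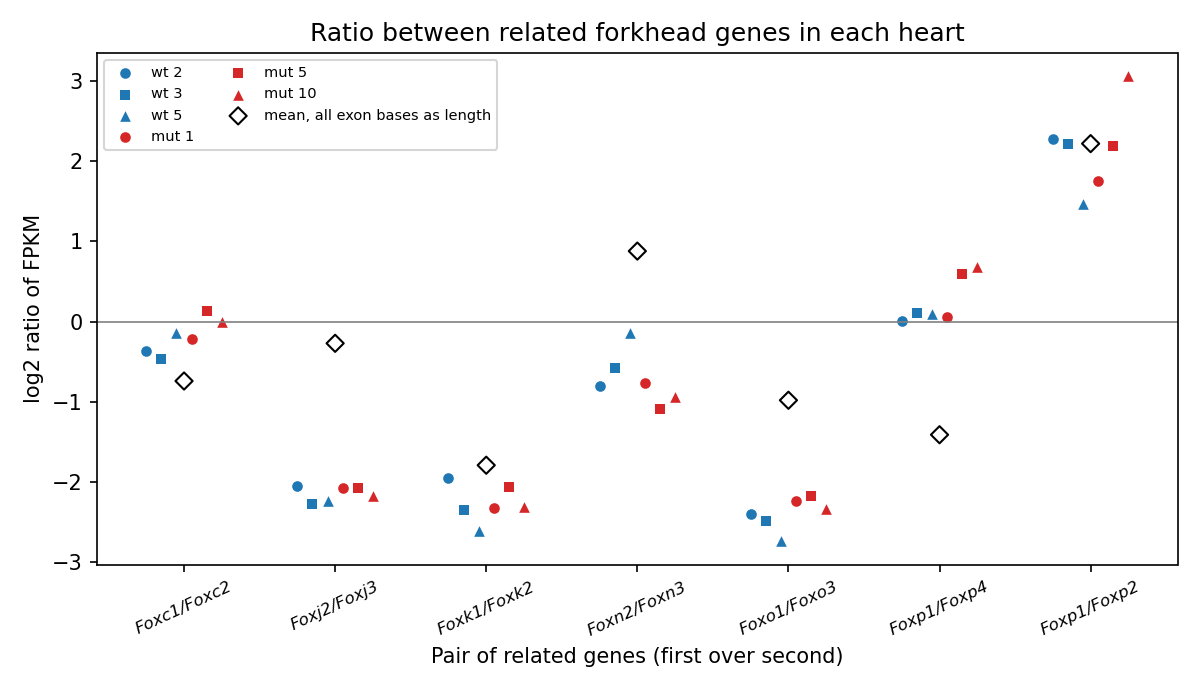
Log2 ratio of FPKM between related forkhead genes in each heart (wild type blue, mutant red, shapes for replicates), with open diamonds for the mean over the 6 hearts when all annotated exon bases serve as the length. Ratios of Foxj2 to Foxj3, Foxk1 to Foxk2 and Foxo1 to Foxo3 lie under 0 in every heart, and the diamonds of Foxn2 to Foxn3 and Foxp1 to Foxp4 lie on the other side of 0 from their points.

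The comparison of mutant with wild type hearts asked which forkhead genes differed in level between whole hearts of these genotypes. Cre and the deletion were present together, so their parts cannot be told apart. Hearts with high Xist were also uneven between the groups, as given above for Foxo4. In the quasi-likelihood fit of edgeR, 0 of the 27 tested genes passed the threshold (adjusted p of 0.05), as did 0.0% of all 17473 genes (0 genes), and the smallest adjusted p of a forkhead gene was 0.843. At an unadjusted p under 0.05 there was 1 of 27 (3.7%), Foxs1, against 5.73% of all genes. The same gene was the only one whose groups did not overlap, against 11.2% of all genes. DESeq2, which the study used, called 0.69% of the genes it adjusted and no forkhead gene, with 0.749 as the smallest adjusted p among them. The log2 fold changes were above 0 for 11 genes and below 0 for 16, with a median of -0.077 beside -0.001 over all genes.

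The precision differed with the level. In the 16 genes at 1 FPKM or more other than Foxf1, log2 fold changes ran from -0.31 to 0.37 with standard errors of 0.11 to 0.27. In the tested genes under 1 FPKM that are reported here they ran from -1.06 (Foxs1) to 0.70 (Foxa1), with standard errors of 0.32 to 1.64, and 8 of all 10 such genes were below 0. A missed threshold does not show that these levels were equal.

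**Figure D3:**
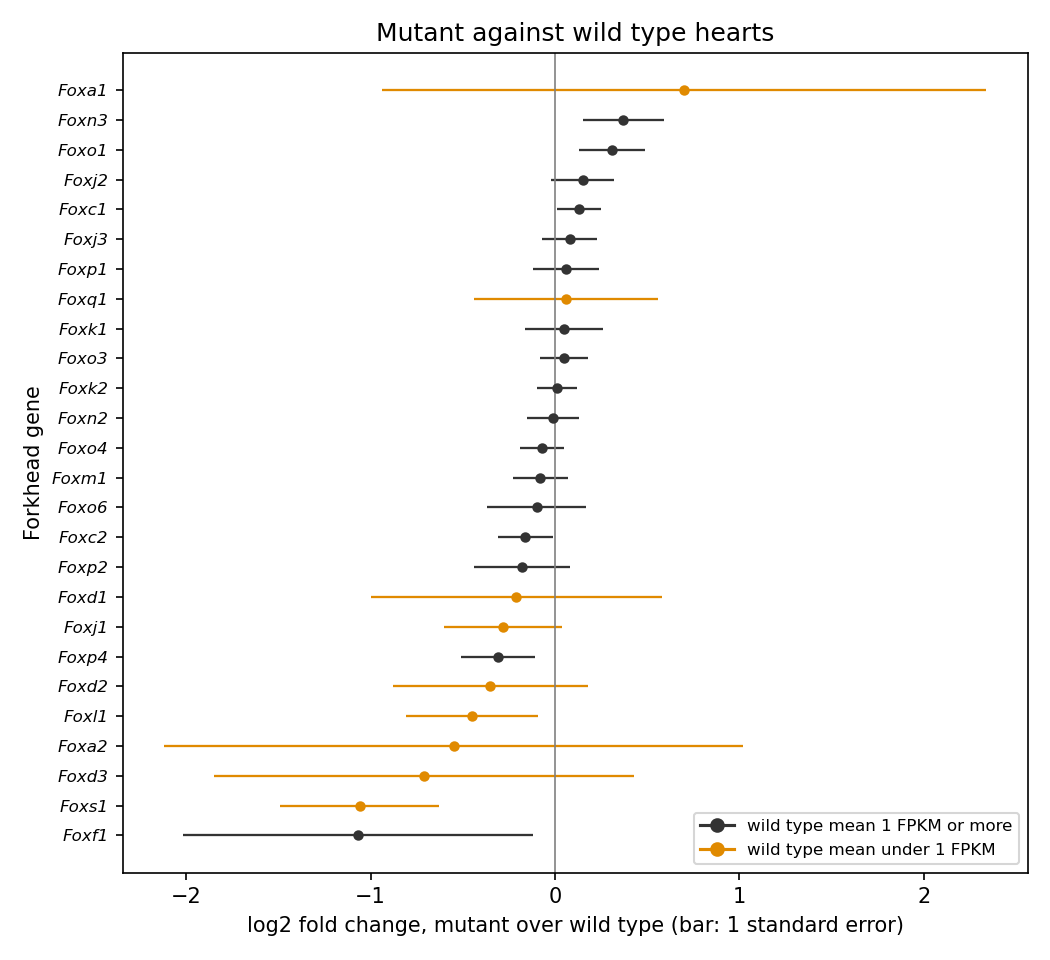
Log2 fold change of tested forkhead genes, mutant over wild type hearts, with bars of 1 standard error from the edgeR quasi-likelihood fit. Genes at a wild type mean of 1 FPKM or more (dark) sit near 0 apart from Foxf1, and those under 1 FPKM (orange) run from -1.06 for Foxs1 to 0.70 for Foxa1 with wide bars.

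Foxs1 (chr2:152931898-152933208, minus strand) encodes a forkhead factor known from neural crest derivatives and from pericytes along vessels. Its counts were 39, 32 and 60 in the wild type hearts and 23, 24 and 17 in the mutant hearts. In FPKM these were 0.536, 0.433 and 1.03 against 0.344, 0.351 and 0.244. Every mutant heart lay under every wild type heart, with a log2 fold change of -1.06 ± 0.43 (adjusted p = 0.843 in the edgeR fit). The unadjusted p was above 0.05 in 4 of the 6 fits without 1 heart, with log2 fold changes of -0.59 without wild type replicate 5 and of -1.11, -1.15 and -0.94 without mutant replicates 1, 5 and 10. Mural cell markers, summed over 10 genes, reached 456 to 573 FPKM in wild type and 519 to 568 FPKM in mutant hearts, of which the smooth muscle actin Acta2 alone made up 406 to 517 FPKM. The pericyte genes Pdgfrb and Kcnj8 had log2 fold changes of -0.25 ± 0.21 and -0.25 ± 0.33. Rgs5 and Abcc9, from the same list, went the other way, at 0.37 ± 0.45 and 0.29 ± 0.23. In all, 9 mural markers were tested, 6 above 0 and 3 below, with a median of 0.08. Of 12 neural crest, glia and neuron markers, 11 were below 0 and 1 above, with a median of -0.34 and a sum that was highest in wild type replicate 5 (22.0 FPKM) and lowest in mutant replicate 10 (10.2 FPKM), as Foxs1 was. The part of either list in the Foxs1 difference was not tested.

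Wild type replicate 5 was the lowest heart in many of the abundant members. Of the 17 genes at 1 FPKM or more, 11 were lowest there after scaling, and counts on all 44 members made up 0.0626% of its total, against 0.0712% to 0.0873% in the other hearts. Red cell genes were high in the same heart, with 60700 summed FPKM, and in mutant replicate 10, with 62400 FPKM, against 19200 to 25700 FPKM in the others. In mutant replicate 10, 3 of the 17 members were lowest. The part of red cell genes in these values was not tested. Some genes outside the family were also lowest in wild type replicate 5. Ttn had 20.9 FPKM there and 37.3 to 51.2 elsewhere, Myh7 356 and 797 to 1020, and Mki67 12.9 and 19.1 to 27.3. Others went the other way, such as Cenpa, at 204 FPKM there and 111 to 139 elsewhere. The share of all genes lowest in that heart was not counted, so the 11 members need not be a forkhead trait. Without wild type replicate 5, 5 of 28 tested members (17.9%) had an unadjusted p under 0.05 in edgeR, all lower in the mutant hearts, beside 12.2% of all genes in either direction and 5.69% lower. These were Foxp4, Foxm1, Foxo4, Foxc2 and Foxh1, and the smallest adjusted p of a member over all fits was 0.169. Foxh1 had too few counts to be tested with all hearts. In this fit it reached the filter minimum of 10 counts only in wild type hearts (11 and 35, against 8, 4 and 6 in mutant hearts). Its place among the 5 therefore follows from the filter and is no support for a lower level.

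Foxa1, Foxa2 and Foxf1, by contrast, separated hearts of one genotype from each other. Foxa1 (chr12:57540628-57546916, minus strand) had 0, 8 and 88 counts in wild type and 13, 164 and 0 in mutant hearts. Foxa2 (chr2:148042877-148046969, minus strand) had 0, 14 and 130 counts in wild type and 8, 103 and 1 in mutant hearts. Wild type replicate 5 and mutant replicate 5 were high for both genes, and wild type replicate 2 and mutant replicate 10 were at or near 0.

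Of 14 foregut and airway markers, 10 had wild type replicate 5 and mutant replicate 5 as their highest hearts, relative to the total count, and Cdh1, Cldn3, Sftpc and Krt7 did not. Nkx2-1, which marks lung and thyroid endoderm, had 0, 0 and 64 counts in wild type and 8, 65 and 0 in mutant hearts. The Hedgehog ligand Shh had 0, 0 and 35 counts against 4, 27 and 0. The epithelial adhesion gene Epcam had 10, 37 and 267 counts against 35, 264 and 29. The sum of the 14 markers went another way, from 21.9 to 24.8 FPKM in wild type and 28.3, 51.8 and 54.4 FPKM in mutant hearts, with the highest value in mutant replicate 10, where Foxa1 and Foxa2 had 0 and 1 counts. Krt7 and Cldn3 made up most of this sum in mutant replicate 10 (39.8 and 11.8 FPKM) and mutant replicate 5 (30.3 and 8.96 FPKM). In wild type replicate 5 these 2 genes had 10.9 and 1.35 FPKM. Krt7, which the mesothelium also expresses, had 1816, 1597 and 787 counts against 1659, 2595 and 3466. The claudin gene Cldn3 had 51, 65 and 75 counts against 321, 589 and 788, with a log2 fold change of 3.15 ± 0.38 (edgeR adjusted p = 0.0991). All 14 had counts in at least 1 heart, Nkx2-1 and Shh at 0 in 3 of the 6 hearts. The part of such tissue in the Foxa1 and Foxa2 values was not tested. The log2 fold changes were 0.70 ± 1.64 for Foxa1 and -0.55 ± 1.57 for Foxa2. With wild type replicate 5 left out they were 3.97 and 2.52, and with mutant replicate 5 left out -2.46 and -3.56, so that single hearts set their sign.

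Foxf1 (chr8:121084386-121088144, plus strand) had 24, 180 and 258 counts in wild type and 39, 175 and 19 in mutant hearts. Fendrr, the non-coding RNA that starts beside Foxf1 on the opposite strand, had 4, 33 and 44 counts against 9, 33 and 0. Wild type replicates 3 and 5 and mutant replicate 5 were the high hearts for both. Tbx4, a mesenchymal gene of lung and limb, had 40, 74 and 235 counts against 61, 170 and 21, and Gli1, a direct readout of Hedgehog signals, had 53, 173 and 371 against 84, 156 and 50. The 3 highest hearts were again the same ones for both. Not all listed markers followed these hearts. Wnt2 had 600, 666 and 511 counts against 420, 271 and 344, lowest in mutant replicate 5. Fgf10 had 101, 220 and 62 counts against 95, 117 and 67. By FPKM it was lowest in mutant replicate 10 (0.729), with wild type replicate 5 next (0.81). Summed over 10 lung and foregut mesenchyme markers, the level was 15.3, 27.6 and 33.5 FPKM in wild type and 17.5, 24.3 and 15.9 FPKM in mutant hearts, and its part in the Foxf1 values was not tested. The log2 fold change of Foxf1 was -1.07 ± 0.95, and that of Fendrr -1.0 ± 1.13. For Foxf1 it was -0.25 when wild type replicate 5 was left out, and -2.47 when mutant replicate 5 was.

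Foxa3, the third FOXA gene, followed other hearts. It had 1, 34 and 2 counts in wild type and 0, 4 and 7 in mutant hearts, so that wild type replicate 3 held most of its counts. Albumin (Alb) had 17429 counts in that heart and at most 289 in any other, and the liver factor Hnf4a had 242 and at most 13. The 10 hepatocyte markers summed to 890 FPKM there and to 3.12 to 25.1 FPKM elsewhere, and their part in the Foxa3 value was not tested.

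**Figure D4:**
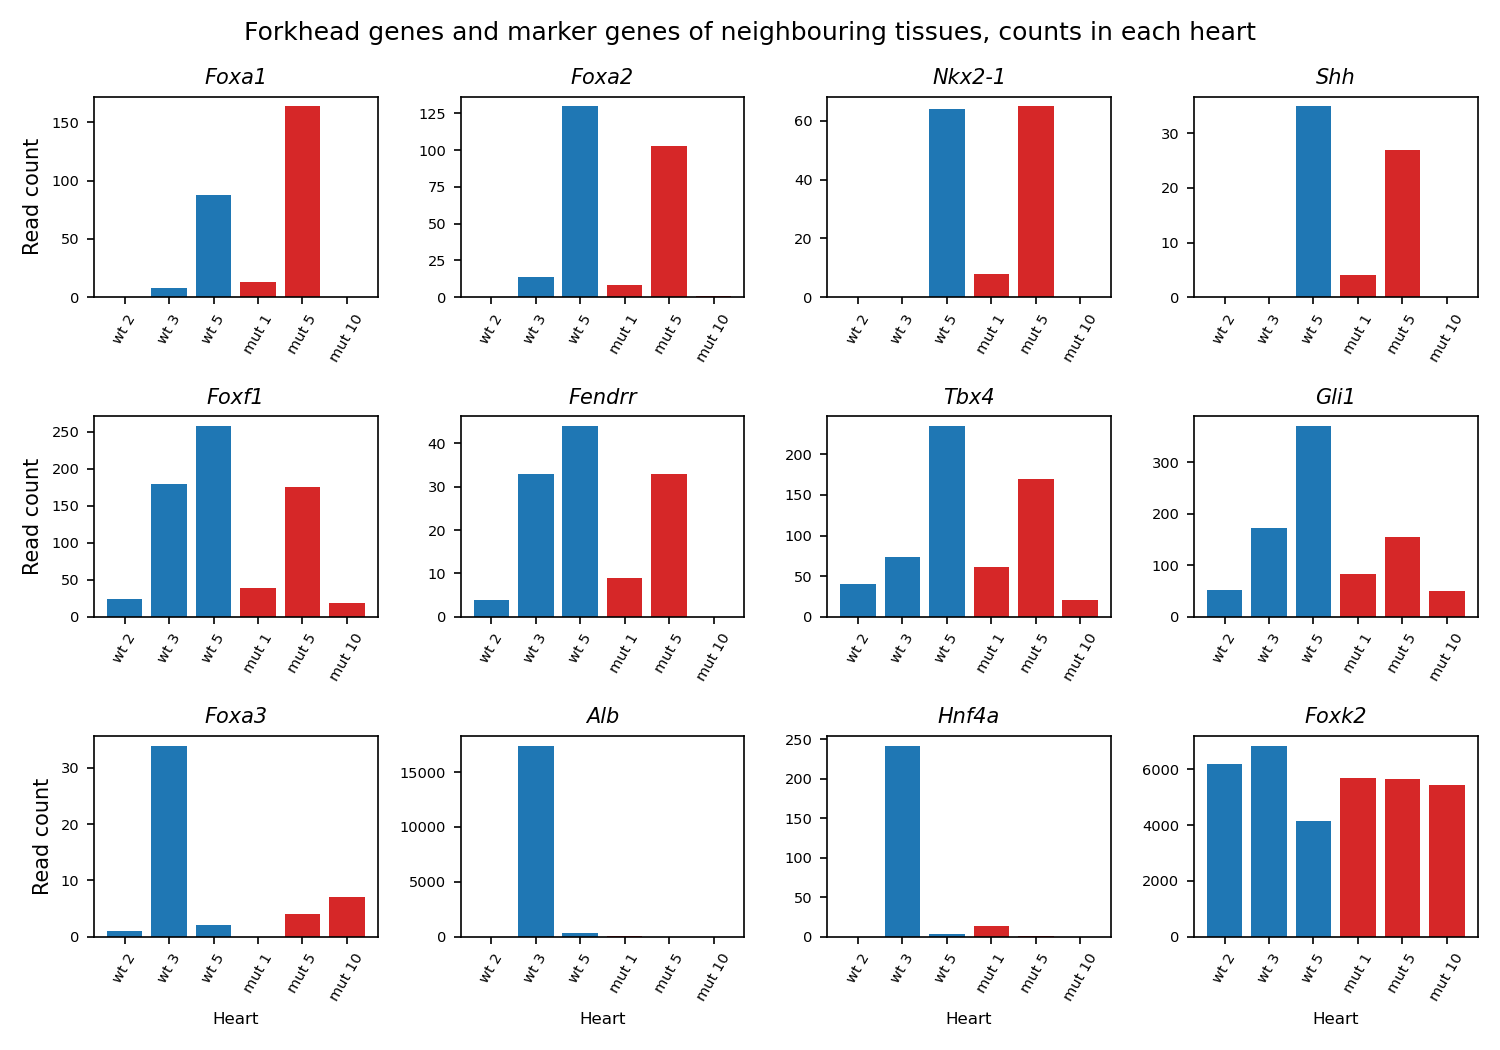
Read counts in each heart (wild type blue, mutant red) for Foxa1 and Foxa2 beside Nkx2-1 and Shh, for Foxf1 beside Fendrr, Tbx4 and Gli1, for Foxa3 beside Alb and Hnf4a, and for Foxk2 as a steady member. Bars start at 0. Foxa1, Foxa2, Nkx2-1 and Shh are highest in wild type 5 and mutant 5, Foxa3, Alb and Hnf4a in wild type 3, and Foxk2 lies between 4152 and 6851 counts in every heart.

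As a description, the coefficient of variation over the 6 hearts was 144% for Foxa1, 142% for Foxa2 and 94.8% for Foxf1, where genes of like level had medians of 31.4%, 31.7% and 23.7%. Foxd3, a neural crest factor, varied by 91.2%, against 48.3%. It had 0, 35 and 15 counts in wild type and 10, 19 and 1 in mutant hearts. Wild type replicates 3 and 5 and mutant replicate 5 were again the high hearts. The summed level of 12 neural crest, glia and neuron markers was 12.4, 14.6 and 22.0 FPKM in wild type and 12.4, 14.6 and 10.2 FPKM in mutant hearts, and its part was not tested. The log2 fold change of Foxd3 was -0.71 ± 1.14, and -1.56 without mutant replicate 5. At the other end, Foxk2 varied by 7.36% and Foxo4 by 9.14%. Not all abundant members were as steady. Foxp4, Foxp2 and Foxn3 varied by 22.9%, 23.8% and 23.2%, where genes of like level had medians of 10.2%, 11.3% and 11.8%.

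Of 5 other low members, Foxd1 varied by 74.3% over the hearts, where genes of like level had a median of 45.0%. The rest varied by 19.8% (Foxj1) to 44.6% (Foxd2). Foxl1, a gut mesenchyme gene, had 77, 50 and 80 counts in wild type and 60, 58 and 35 in mutant hearts, with a log2 fold change of -0.45 ± 0.36. The cilia factor Foxj1 had 36, 50 and 43 counts against 31, 41 and 33, with a log2 fold change of -0.28 ± 0.32. Foxd1, known from kidney stroma, had 12, 20 and 22 counts against 37, 5 and 5, and mutant replicate 1 stood above the rest. Foxd2 had 13, 33 and 12 counts against 19, 17 and 8, and Foxq1 had 48, 30 and 12 against 26, 20 and 43. The groups overlapped for all 5 genes.

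Among the 9 genes with counts too low to test, Foxh1, a partner of SMAD proteins in Nodal signalling, had 11, 35 and 0 counts in wild type and 8, 4 and 6 in mutant hearts. Foxf2, a paralogue of Foxf1, had 7, 10 and 5 counts against 3, 9 and 1. Foxp3, the factor of regulatory T cells, had 0, 3 and 3 counts in wild type hearts, at the limit of 3 counts a heart under which a gene is not told from absence here, and 6, 2 and 0 in mutant hearts. With so few counts no fold is given. Foxa3 is described above, and Foxr2, Foxe1, Foxb1, Foxb2 and Foxi2 had at most 3 counts in any heart. The 8 genes at 0 in every heart were Foxd4, Foxl2, Foxi1, Foxi3, Foxe3, Foxn4, Foxn1 and Foxr1, whose known sites include ovary, inner ear, lens and thymus. Counting error alone leaves room for as many as 3 counts behind a 0.

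The genes that act before or after forkhead factors were also without a call at an adjusted p under 0.05 in the edgeR fit. Of 20 listed FOXO targets, 16 were above 0 and 4 below, with a median log2 fold change of 0.11 beside -0.001 over all genes and none at an unadjusted p under 0.05. Sesn3, a stress-induced sestrin, had 1239, 1262 and 726 counts in wild type and 1318, 1293 and 1214 in mutant hearts, and a log2 fold change of 0.29 ± 0.13 (edgeR adjusted p = 0.895). Of 17 genes listed for the PI3K and AKT input to FOXO, 15 were above 0 and 2 below, with a median of 0.12. The 17 include Pdk1 (0.23 ± 0.11), which in mouse names a pyruvate dehydrogenase kinase and is not part of that input. They also include Insr, which the FOXO target list holds too, so the counts of the lists are not separate. The FOXO kinase Sgk1 had 1055, 1171 and 811 counts in wild type and 1220, 1219 and 1329 in mutant hearts, with no overlap after scaling. Its log2 fold change was 0.35 ± 0.11 (edgeR adjusted p = 0.657), and it was the only one of the 17 with an unadjusted p under 0.05.

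Of 18 mitotic FOXM1 targets, 14 were below 0 and 4 above, with a median of -0.06. Cdc25c, a phosphatase at mitotic entry, had 1248, 1130 and 971 counts in wild type and 930, 970 and 893 in mutant hearts, and a log2 fold change of -0.24 ± 0.10 (edgeR adjusted p = 0.866), and was the only one with an unadjusted p under 0.05. Of 18 genes of motile cilia downstream of FOXJ1, 11 were tested, 4 above 0 and 7 below, with a median of -0.13. Dnaic1, a dynein intermediate chain, had 61, 55 and 41 counts in wild type and 92, 79 and 76 in mutant hearts. Hydin, a central pair protein, had 177, 112 and 43 counts against 11, 25 and 36. Their log2 fold changes were 0.69 ± 0.25 and -2.11 ± 0.54 (edgeR adjusted p = 0.776 and 0.518), so the list held genes on either side.

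Of 14 Hedgehog genes, the pathway upstream of Foxf1, 12 were tested, 5 above 0 and 7 below, with a median of -0.02. Gas1, a surface co-receptor of Hedgehog ligands, had 4831, 5289 and 3228 counts in wild type and 2922, 3164 and 3371 in mutant hearts, with no overlap after scaling and a log2 fold change of -0.45 ± 0.12 (edgeR adjusted p = 0.547). Of 16 factors that work beside FOXP or FOXC proteins in heart and vessels, 8 were above 0 and 8 below, with a median of -0.01. Isl1, a factor of second heart field and sinus node, had 273, 332 and 301 counts in wild type and 218, 208 and 145 in mutant hearts, and a log2 fold change of -0.66 ± 0.21 (edgeR adjusted p = 0.696). Of 4 non-coding RNAs next to forkhead genes, Fendrr (above) and Foxd2os were tested, and Foxd2os, beside Foxd2, had 36, 46 and 19 counts in wild type and 13, 24 and 19 in mutant hearts (log2 fold change -0.79 ± 0.41). Foxl2os and Foxo6os had at most 5 counts in any heart.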

How the data were processed

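RNA of 6 whole hearts was sequenced. Per the labels and the methods, the authors trimmed reads, aligned them to mouse GRCm38 with STAR and used featureCounts on uniquely mapped reads, while the labels name HTSeq and DESeq2. The deposited counts are not normalized. The deposited FPKM are these counts over a fixed length per gene and the total of the heart (largest relative deviation 6.2e-14), and 46488 of 46983 genes matched GENCODE M21. Further deposited columns hold each group's mean FPKM and were not used.

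Counts were tested with edgeR 4.0.16 (R 4.3.3; quasi-likelihood, TMM, filterByExpr with a count minimum of 10 and a total minimum of 15, two-sided, Benjamini-Hochberg over 17473 genes, threshold 0.05). The values of 1 member are not reported here. Members and lists were chosen with earlier results of these data known. Per-heart values are given for members with an unadjusted p under 0.05, the 12 highest by wild type FPKM, members at 3 counts or fewer in each heart of a single group, and paired members; other members and marker genes given by heart were chosen after their values were seen. From each list, members past the threshold or else up to 3 with the smallest p are named. Some further list members and markers are named beside a result, chosen after their values were seen. Related genes were compared with exact permutation tests. Alternatives were DESeq2 1.42.0, limma 3.58.1, other scalings, filters, lengths and each heart left out. The script was tested on simulated data. Counting limits cover counting error only.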

Additional observations from a re-analysis of the deposited data

How the results depend on the processing

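No forkhead gene had an adjusted p under 0.05 in any of the 19 other fits. Over all genes that count was 0, but 133 with DESeq2, 34 with no filter, 13 with the length trend removed, 13 with length and GC trends removed, 9 without wild type replicate 5 and mutant replicate 5, and 0 to 44 without 1 heart (44 without wild type replicate 5). The last 2-heart omission, the GC trend and all exon bases as length were chosen after seeing the data. The 1 member with an unadjusted p under 0.05 became 0 with limma-voom and with the filter at 1 CPM, 2 with either trend removed (Foxo1 and Foxs1, 7.41% beside 6.76% and 6.65% of all genes), 4 of 25 without the 2 airway-marked hearts (16.0%, beside 2373 of all 17606 genes), and 0 to 5 without 1 heart. Those 4 were Foxk1, Foxm1, Foxp1 and Foxp4, all lower, Foxk1 and Foxp1 against their sign with all hearts. Foxs1 stayed below 0 in all 18 other fits that tested it, with an unadjusted p under 0.05 in 12.

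Signs turned mostly in small or uncertain differences. Foxk2 gave -0.02 in both FPKM fits, with upper-quartile factors and with totals only, Foxa2 0.38 and Foxd3 0.14 with limma-voom, and Foxo6 0.06 with both trends removed. Without the 2 airway-marked hearts, Foxd1 gave 0.52, Foxj2 -0.06, Foxj3 -0.09, Foxk1 -0.26, Foxk2 -0.08, Foxo3 -0.10, Foxp1 -0.22 and Foxq1 -0.03. Without 1 heart, log2 fold changes ran from -2.46 to 3.97 for Foxa1, -3.56 to 2.52 for Foxa2, -1.82 to 0.20 for Foxd1, -0.59 to 0.18 for Foxd2, -1.56 to 0.24 for Foxd3, -0.03 to 0.32 for Foxj2, -0.08 to 0.17 for Foxj3, -0.16 to 0.26 for Foxk1, -0.08 to 0.09 for Foxk2, -0.23 to 0.03 for Foxm1, -0.11 to 0.08 for Foxn2, -0.05 to 0.15 for Foxo3, -0.17 to 0.01 for Foxo4, -0.36 to 0.10 for Foxo6, -0.13 to 0.18 for Foxp1, -0.38 to 0.10 for Foxp2 and -0.32 to 0.53 for Foxq1. Foxa1 reached 3.97 and Foxa2 2.52 without wild type replicate 5, and -2.46 and -3.56 without mutant replicate 5. The member median ran from -0.16 to 0.02, that of FOXM1 targets from -0.16 to 0.01, of Hedgehog genes from -0.10 to 0.03 and of FOXP and FOXC partners from -0.12 to 0.10. The cause was not tested. With all exon bases as length, mean log2 ratios were 0.88 for Foxn2 to Foxn3, -1.41 for Foxp1 to Foxp4, -0.74 for Foxc1 to Foxc2, -0.27 for Foxj2 to Foxj3, -1.79 for Foxk1 to Foxk2 and -0.98 for Foxo1 to Foxo3. No paired analysis was possible because the labels name no pairs of hearts. Standard errors reached 1.64 in the tested genes under 1 FPKM, which limits what could be detected there.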
